A study of Mus musculus with 42 samples.

Results

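Single retinal progenitor cells (RPCs) of the mouse from embryonic day 12.5 (E12.5) and from the day of birth (postnatal day 0, P0) were compared gene by gene over the whole array. Every cell whose source name gives one of these stages was taken, which yielded 11 E12.5 cells and 13 P0 cells among the 42 profiled RPCs. In the study, retinas of CD1 mice were dissociated with papain, single cells were picked at random with a glass capillary, their cDNA was amplified by 35 cycles of PCR, and each cell was hybridised to 1 Affymetrix 430 2.0 array. The labels name no treatment, transgene or sex, and the groups differ in age alone as far as the labels say. The cells were classed as RPCs afterwards from the arrays themselves, through genes that associate with Ccnd1, Fgf15, Sfrp2 and Crym, so that these 4 genes and those that travel with them took part in choosing the cells. The paper describes Car2, Rlbp1, Ptch1, Tagln2 and Sox8 among the late genes around Crym, so that these may have taken part as well. P0 cell C5 was described as transitional. The labels name no animal or litter, so that each stage counts as 1 sample. No test between stages was therefore made, genes are counted by the size of their difference alone, and the 95% intervals given cover counting error only.

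RPCs are the dividing cells that give rise to all neurons of the retina and to Müller glia, its radial support cells. Early in development they produce retinal ganglion cells, cones, horizontal and amacrine cells, and around birth they produce mostly rods, bipolar cells and Müller glia. Late RPCs share many transcripts with Müller glia. Notch signalling holds RPCs in the undifferentiated state, D-type cyclins drive them into the cell cycle, and thyroid hormone, retinoic acid, Hedgehog and fibroblast growth factors act on them from outside.

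A gene was scored as present in a cell where the highest MAS5 signal, the array software's linear summary of probe brightness, among its probe sets was 1000 or more. Its share of cells at E12.5 was then set against its share at P0, in percentage points (P0 minus E12.5). The array measured 18194 genes with a symbol of their own. Between 1691 and 4828 genes were present in an E12.5 cell, with a median of 2800, and between 2001 and 4498 in a P0 cell, with a median of 3063. On average a gene was present in 15.3% of E12.5 cells and 18.1% of P0 cells, so that shares ran higher at P0 before any single gene is considered. The RPC markers Pax6, Ccnd1, Sox2 and Lhx2 were present in 11, 10, 10 and 9 of the 11 E12.5 cells and in 13, 13, 12 and 13 of the 13 P0 cells. Marker genes of other cells were not at 0 everywhere. Of 29 retinal ganglion cell genes, an E12.5 cell held 1 to 12 and a P0 cell 0 to 17, with cells B6 and C1 of P0 highest at 17. Of 10 blood genes, 1 E12.5 cell (G2) held 7. Xist was present in 0 E12.5 and 6 P0 cells and a Y-linked gene in 6 and 3, never both in a cell. The make-up by sex may thus differ between the stages, and differences by sex cannot be told apart from those by age. Cells resembled each other to a like degree within and between stages. Over all genes, with signals under 1000 set to 1000, the median Pearson r was 0.43 among the 55 pairs of E12.5 cells, 0.49 among the 78 pairs of P0 cells and 0.43 among the 143 mixed pairs, and the closest pair reached 0.73, so that no pair looked like a single library deposited again.

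Most genes differed little between the stages. Of the 18194 genes, 8175 were present in none of the 24 cells, 109 were present in all 24, and 14345 (78.8%) differed by less than 15 points. A difference of 50 points or more was found for 27 genes that were lower at P0 (0.148% of all genes) and 129 that were higher (0.709%). The Newcombe 95% interval of the difference lay off 0 for every one of them. At these cell numbers that follows from picking genes by so large a difference, so that it adds no support. The intervals make no allowance for the number of genes compared. At 30 points or more, 277 genes were lower (1.52%) and 860 higher (4.73%), of which 167 and 510 had an interval off 0. All of these are among the 10019 genes present in at least 1 of the 24 cells. A list of mostly detected genes therefore exceeds the shares of all genes more readily. Counts of list members past 30 points are given below and are to be read beside 1.52% and 4.73% of all genes. The lean towards P0 depended on how presence was scored. When the 3000 highest genes of each cell were called present, so that all cells held an equal number, 53 genes (0.291%) were lower and 79 (0.434%) higher by 50 points, and 475 (2.61%) against 541 (2.97%) by 30 points. Quantile normalization gave 56 and 83 by 50 points. Genes found at a single stage were nearly all rare: of the 863 genes present in E12.5 cells and in no P0 cell, 571 were seen in 1 cell and 8 in 5 cells or more. Of the 1693 genes present in P0 cells and in no E12.5 cell, 908 were seen in 1 cell and 103 in 5 or more. Leaving out 1 cell moved the count of 27 lower genes to 45 without E12.5 cell E3 or E5 and to 41 without B4. Without the 5 cells that held 9 or more retinal ganglion cell genes (A4 of E12.5 and B5, B6, C1 and C8 of P0) it was 32, and the count of 129 higher genes became 218. None of 11 cells still allows a share of up to 27.3%, and none of 13 a share of up to 23.1%.

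**Figure D1:**
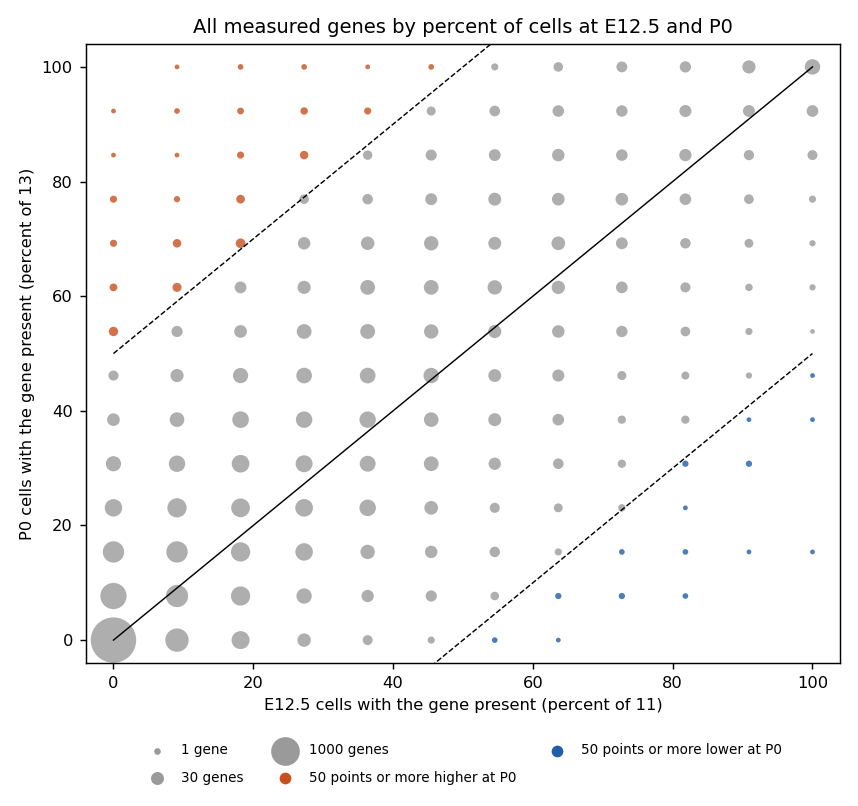
Percent of E12.5 cells (n = 11) against percent of P0 cells (n = 13) in which each of the 18194 genes was present at a signal of 1000 or more. Most genes lie near the line of equality or at the origin, with 27 genes 50 points or more below it and 129 at least as far above it.

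The genes with the largest differences rarely separated the stages cell by cell. Only 2 genes, Crym and Rlbp1, had a lowest P0 signal above the highest E12.5 signal, and 3 genes, Sfrp2, Rpl27a and Rpl35, had a lowest E12.5 signal above the highest P0 signal. Signals are given below as the lowest, median and highest over the cells of a stage. Rlbp1, which encodes the retinaldehyde-binding protein of Müller glia and pigment epithelium, had signals of 5.31, 39.2 and 143 at E12.5 and 689, 9711 and 38485 at P0. For all other genes named here the ranges of the stages overlapped.

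Genes that were present in fewer P0 cells included a D-type cyclin and subunits of a corepressor complex. Ccnd3, a partner of the G1 kinases, was present in 8 of 11 E12.5 cells and 2 of 13 P0 cells, a difference of -57.3 points (Newcombe 95% interval -78.1 to -17.6). Its signals were 10.5, 3999.6 and 22569 at E12.5 and 49.0, 121 and 3448 at P0, so that the ranges overlapped while most P0 cells lay far below 1000. Ccnd1, the main D-type cyclin of the retina, had high signals at both stages, with medians of 36178 and 40786. Numbers of cells are given from here in the order E12.5 (of 11) and P0 (of 13). Cdk6, a kinase that both cyclins can bind, went the other way and was present in 5 and 11 cells. Among 29 histone deacetylases and corepressors, 3 were lower and 3 higher at P0 by 30 points, beside 1.52% and 4.73% of all genes. The lower ones included Hmg20b, which encodes an HMG-box subunit of the LSD1-CoREST histone demethylase complex, with 9 E12.5 and 2 P0 cells (-66.4 points, interval -83.5 to -26.5). Hmg20b signals were 22.2, 2812 and 9129 at E12.5 and 23.1, 142 and 4385 at P0. Rcor2, which encodes a CoREST protein of the same complex, was present in 7 E12.5 cells and in no P0 cell. Hdac1, a deacetylase of that complex, was on the other side, with 5 and 11 cells (39.2 points, interval 1.4 to 65.8).

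Several signalling and surface genes were on the same side. The Wnt receptor gene Fzd2 was present in 6 E12.5 cells and 1 P0 cell, and the protocadherin gene Pcdh19 in 6 and 1. Csk, which encodes the kinase that restrains Src family kinases, was likewise present in 6 and 1. Hyal2, a hyaluronidase, and Sh3pxd2b, an adaptor of podosomes, were each present in 7 E12.5 cells and 1 P0 cell. The receptor genes Fgfr1 and Insr were present in 6 and 6 E12.5 cells against 3 and 2 P0 cells, and the interval for Fgfr1 (-59.9 to 6.5 points) covered 0. Slc7a6 and Slc3a2, the light and heavy chains of an amino acid exchanger, had like shares, with 8 and 3 cells for the first and 7 and 3 for the second. Slc3a2 signals were 3.80, 6289 and 32038 at E12.5 and 3.92, 217 and 5765 at P0. The collagen IV genes Col4a1 and Col4a2, which lie head to head and encode the chains of basement membrane collagen, were each present in 5 E12.5 cells and 1 P0 cell, and the laminin receptor gene Itga6 in 6 and 2. Stil, which is required to build centrioles, was present in 7 and 2 cells. Nop2, an enzyme that methylates ribosomal RNA in the nucleolus, was present in 6 E12.5 cells and no P0 cell, with its highest P0 signal at 838. The equal-number scoring, which looks past that threshold, placed Nop2 in 8 and 2 cells. Xpo7, a nuclear transport receptor, was present in 8 and 3 cells, with median signals of 11092 and 159.

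The transcription factors that define the eye field had like shares at both stages. Among 17 homeodomain factors of the eye field and of progenitors, the share of positive gene and cell combinations was 38.5% at E12.5 and 35.7% at P0, and Six6 was the single member past 30 points. Six6, which promotes progenitor proliferation, was present in 9 and 5 cells, with signals of 17.1, 5677 and 16567 at E12.5 and 12.3, 290.1 and 5379 at P0. The strongest E12.5 cells exceeded every P0 cell, and the weakest E12.5 cells lay among the lowest P0 cells. Id3, an inhibitor of basic helix-loop-helix factors and a target of bone morphogenetic proteins, was present in 10 and 7 cells. Its median signal was 25782 at E12.5 and 2572 at P0, and the highest P0 cell reached 12013. Neurod1, a factor of newborn photoreceptors and amacrine cells, was present in 6 and 3 cells, with an interval that covered 0 (-59.9 to 6.5). Hes6, which opposes Hes1 during neurogenesis, was present in 6 and 11, and its interval covered 0 too. Over all 11 neurogenic factors the share was 23.1% at both stages.

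Genes of retinoic acid and thyroid hormone handling divided between the stages. The list of 23 genes was present in 19.8% of combinations at E12.5 and 30.1% at P0, with 3 members lower and 4 higher by 30 points. The lower ones all act on retinoic acid. Crabp1, which encodes a cytoplasmic retinoic acid-binding protein, was present in 9 and 5 cells, and its signals were 56.6, 12977 and 49121 at E12.5 and 6.62, 53.6 and 4582 at P0. Crabp2 was present in 8 and 4 cells, and the synthesising enzyme gene Aldh1a1 in 7 and 4, with an interval of -60.7 to 6.1 points. The Crabp2 range at P0 enclosed that at E12.5, and the highest P0 cell (19579.6) lay above the highest E12.5 cell (10400.4). On the other side stood the thyroid hormone receptor gene Thra, with 2 and 11 cells (66.4 points, interval 26.5 to 83.5), and Rxrb, which encodes a partner of both kinds of receptor, with 1 and 9. Thra signals were 3.42, 94.9 and 4606 at E12.5 and 229, 2787 and 8971 at P0. The other higher members were Crym, a thyroid hormone-binding protein that was itself used to class the cells, and Rlbp1, among the paper's late genes around Crym. These 2 had the largest differences of the 4 (90.9 and 84.6 points). The higher share of the list at P0 is thus not independent of how the cells were chosen.

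Genes of Müller glia were present in many more combinations at P0. The 30 genes of the list were present in 25.5% of combinations at E12.5 and 46.4% at P0, with no member lower and 7 higher by 30 points. The median difference was 9.4 points in the list and 0 over all genes, which include the 8175 genes present in none of the 24 cells. An E12.5 cell held 4 to 11 of them (median 7) and a P0 cell 11 to 16 (median 15), so that the stages met at 11. Besides Crym and Rlbp1 these included the carbonic anhydrase gene Car2 (1 and 12 cells) and Sox8 (0 and 10). All of these named members belong to the paper's late genes around Crym, so that they are not independent of how the cells were chosen. Glul, the glutamine synthetase of Müller glia, was present in 8 and 13 cells, with medians of 6887 and 3630.0, and Apoe and Aqp4 were present in no cell of either stage. The nuclear factor I genes, transcription factors of late progenitors and glia, were nearly absent at E12.5, where their 4 members held 4.5% of combinations, and reached 44.2% at P0. Nfib was present in 0 E12.5 and 10 P0 cells, a difference of 76.9 points (interval 39.4 to 91.8), with signals of 43.9, 155 and 839 at E12.5 and 130.1, 3508 and 7567 at P0. Nfia was present in 0 and 6 cells and Nfic in 1 and 6. Under the equal-number scoring Nfib kept a difference of 75.5 points and Nfia of 38.5, but Nfic had 4.9, and the family's shares were 13.6% and 38.5%.

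**Figure D2:**
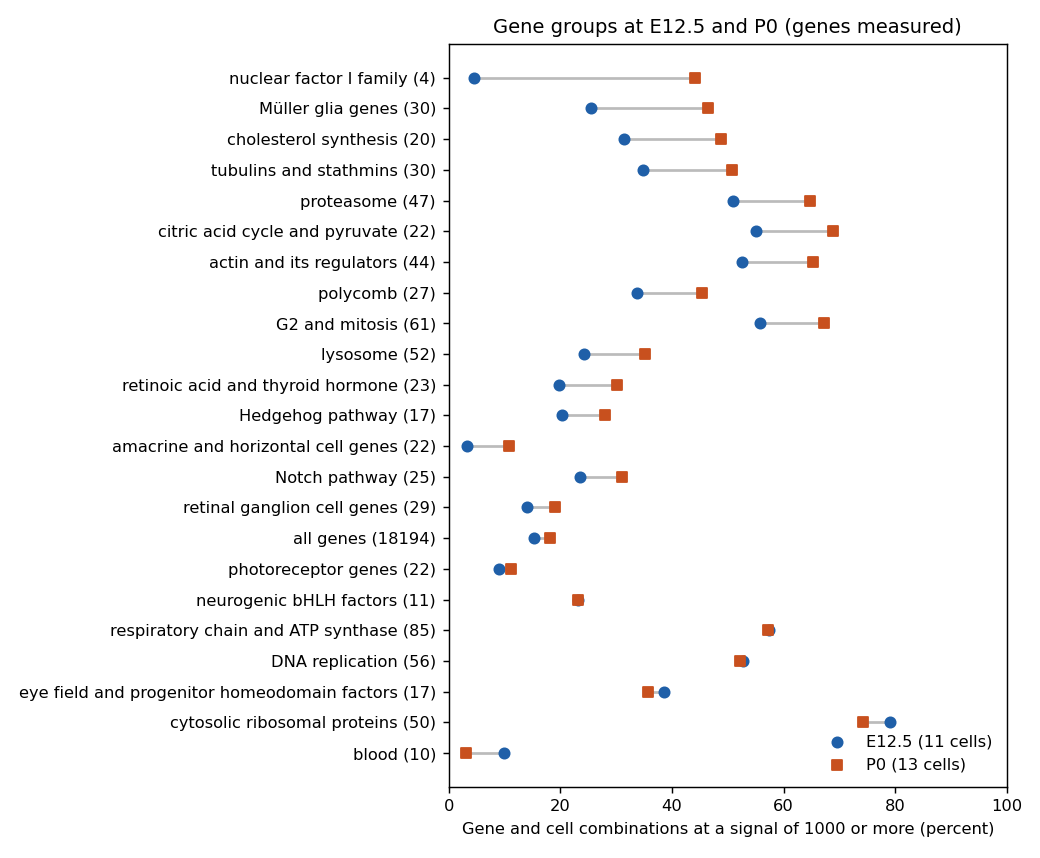
Percent of gene and cell combinations present at 1000 or more in each of a set of gene lists, with E12.5 (11 cells) and P0 (13 cells) as separate points and all 18194 genes as the reference. Nuclear factor I and Müller glia genes lie farthest apart (4.5% against 44.2% and 25.5% against 46.4%), while the respiratory chain (57.4% and 57.3%) and DNA replication (52.8% and 52.2%) lie together.

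Notch pathway genes lay on both sides. Of 25 genes, 2 were lower and 6 higher at P0 by 30 points, beside 1.52% and 4.73% of all genes. The share of combinations was 23.6% at E12.5 and 31.1% at P0, or 24% and 29.5% under the equal-number scoring. The lower pair were the receptor gene Notch3 (6 and 2 cells) and Rbpj (9 and 6), which encodes the DNA-binding partner of all Notch receptors. Rbpj signals were 37.0, 6019.6 and 26522 at E12.5 and 14.4, 603 and 8516 at P0, and the interval of its difference (-62.1 to 2.8 points) covered 0. The higher genes included targets and modifiers of the pathway. Nrarp, a Notch target that feeds back on the receptor complex, was present in 0 E12.5 and 9 P0 cells (69.2 points, interval 31.9 to 87.3), with signals of 6.96, 213 and 556 at E12.5 and 183, 1939 and 9561 at P0. The basic helix-loop-helix repressor genes Heyl and Hey2, targets of Notch in many tissues, were present in no E12.5 cell and in 8 and 5 P0 cells. Hey2 signals at E12.5 stayed between 4.77 and 106, while at P0 they ran from 5.68 through a median of 93.8 to 11327. A group of P0 cells thus carried Hey2 at a high signal and the others at the level of E12.5 cells. Dtx4, a Deltex-type regulator of Notch, was present in 6 and all 13 cells.

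The promoter of Hey2 is shown because this gene went from no cell to a subset of cells at high signal and is a direct Notch target in other tissues. The sequence is RefSeq's for the build GRCm38.p6, from 250 bases before to 50 bases after the start of the gene on the minus strand, chr10:30842734-30843033, and the capitals mark GTGGGAA, the core letters of Rbpj binding sequences, searched on both strands.
Hey2: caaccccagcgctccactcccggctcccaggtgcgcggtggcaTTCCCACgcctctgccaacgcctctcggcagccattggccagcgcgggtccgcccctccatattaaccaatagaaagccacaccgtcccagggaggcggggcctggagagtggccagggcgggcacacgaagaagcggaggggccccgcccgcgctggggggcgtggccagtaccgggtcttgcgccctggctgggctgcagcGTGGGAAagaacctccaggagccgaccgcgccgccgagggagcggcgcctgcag
The letters occurred 2 times in this window, while the Nrarp window of the same size held none, and 6.4% of the 32851 promoters in the table held at least 1. The match is a description of letters and was not tested as a binding site.

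**Figure D3:**
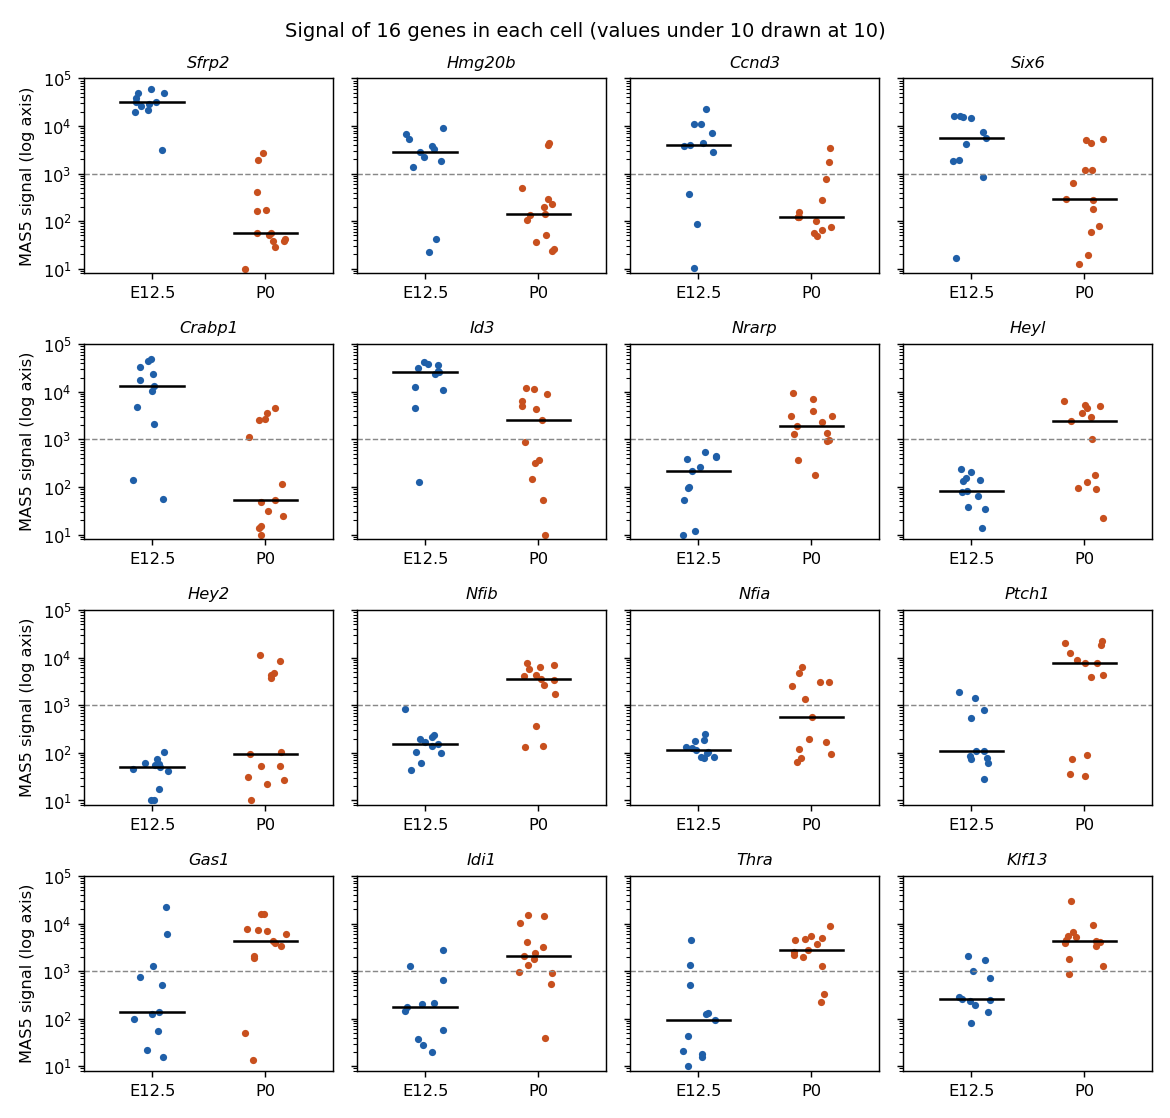
Signal of 16 genes in each E12.5 cell (11 points) and each P0 cell (13 points) on a log axis, with the presence threshold of 1000 as a dashed line, a bar at the median and values under 10 drawn at 10. The stages overlap for all but Sfrp2, and genes such as Nrarp, Heyl and Nfib have no E12.5 cell above the line.

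Hedgehog genes were higher at P0 through 3 of 17 members. Ptch1, the Hedgehog receptor and a target of the pathway, was present in 2 and 9 cells, with signals of 28.9, 108 and 1921 at E12.5 and 32.9, 7678 and 22181 at P0. It is also among the paper's late genes around Crym, which was used to class the cells. Gas1, a surface protein that binds Hedgehog, was present in 3 and 11 cells, and Gli3, a transcription factor of the pathway, in 4 and 11. The differences were 51.0, 57.3 and 48.2 points, all with intervals above 0. The share over the whole list was 20.3% at E12.5 and 28.1% at P0, but 23% and 24.9% when each cell held an equal number of genes.

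Cholesterol synthesis genes were present in more P0 cells. The 20 genes had shares of 31.4% and 48.8%, a median difference of 23.4 points, no member lower and 6 higher by 30 points. With an equal number of genes in each cell the shares were 36.4% and 45%. Idi1, the isopentenyl diphosphate isomerase, was present in 2 and 9 cells, Pmvk, the phosphomevalonate kinase, in 1 and 7, and Nsdhl, a late enzyme that removes methyl groups from sterol precursors, in 3 and 9. Idi1 signals were 19.8, 175 and 2835 at E12.5 and 39.0, 2132 and 15501 at P0. Hmgcs1, the synthase that starts the mevalonate pathway, was already present in 10 E12.5 cells and in 12 P0 cells, and there the level differed, with medians of 11289 and 22818. Hmgcs1 is named after its values were seen, because its promoter holds the letters of a sterol response element. That promoter is shown from RefSeq for GRCm38.p6, plus strand, chr13:119690101-119690400, with the motif TCACNCCAC in capitals.
Hmgcs1: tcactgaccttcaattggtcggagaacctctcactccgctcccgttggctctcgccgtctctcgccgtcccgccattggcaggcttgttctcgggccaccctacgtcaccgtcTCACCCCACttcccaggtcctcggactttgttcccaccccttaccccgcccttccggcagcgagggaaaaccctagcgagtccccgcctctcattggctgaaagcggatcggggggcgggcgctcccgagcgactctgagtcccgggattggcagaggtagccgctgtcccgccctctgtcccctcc
These letters, searched on both strands, occurred 1 time in the Hmgcs1 window and not in the Idi1 window, and 1.2% of the 32851 promoters held them.

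Genes of the respiratory chain lay on both sides, whereas those of the citric acid cycle lay on one. The 85 genes of the respiratory chain and ATP synthase had the same share at both stages (57.4% and 57.3%), yet 8 were lower and 7 higher by 30 points. The lower members named here encode small subunits of complex IV and of ATP synthase. Cox8a was present in 10 and 4 cells, Cox5b in 10 and 5, Atp5j2 in 11 and 6 and Atp5k in 6 and 0. Several P0 cells lay close to the threshold for Atp5j2, with 996 in H2 and 947 in C8 below it and 1006.7 in B6 and 1091.7 in C1 above it. Its difference was as small as -7.7 points among the alternatives, against -53.8 in the main scoring. The 4 P0 cells with Cox8a were E5, E6, E2 and F3, at signals of 7365, 11165, 8025 and 10775. Cox5b signals were 760.2, 10285 and 31358 at E12.5 and 206, 712 and 14367 at P0. The higher members included subunits of complexes I and II: Ndufa9 with 3 and 12 cells, Ndufv1 with 4 and 11, and Sdhc, the membrane anchor of succinate dehydrogenase, with 3 and 12. Sdhc signals were 11, 221 and 6584 at E12.5 and 448, 7822 and 30451 at P0. Citric acid cycle genes leaned one way, with 4 of 22 higher, none lower and shares of 55.0% and 68.9% (56.2% and 65.4% under the equal-number scoring). They comprised Sdhc, Idh1 (5 and 13 cells), Idh3a (5 and 12) and Ogdh (3 and 9), the last a part of the 2-oxoglutarate dehydrogenase. Glycolysis, with 18 genes, had shares of 54.5% and 54.7% and no member past 30 points.

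Genes of DNA replication and of mitosis were compared separately. DNA replication genes had nearly equal shares, 52.8% and 52.2% over 56 genes. By 30 points 4 were lower and 3 higher, beside 1.52% and 4.73% of all genes, and the higher count lies near the latter share. The lower ones included the polymerase delta subunit gene Pold3 (8 and 5 cells) and the GINS helicase subunit gene Gins4 (7 and 4), and the higher ones the primase gene Prim1 (5 and 11) and the fork protection gene Tipin (7 and 13). The intervals for Pold3 and Gins4 covered 0. The 61 genes of G2 and mitosis had shares of 55.7% and 67.2%, with 2 lower and 7 higher, although the median cell held 44 of them at both stages. Higher members were the kinetochore gene Nuf2 (2 and 9 cells), the cohesin protector gene Sgo1 (2 and 8) and the mitotic kinase gene Aurkb (5 and 10). The interval for Aurkb covered 0. A cell held between 10 and 56 of the 61 genes at E12.5 and between 5 and 58 at P0, so that single cells of a stage differed far more than the stages did. Cell cycle exit genes were present in 20% and 30% of combinations (24.1% and 26.9% under the equal-number scoring), among them the antiproliferative gene Btg1 with 7 and 13 cells.

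Genes of polycomb complexes and of HMG proteins were present in more P0 combinations. Polycomb genes, which encode silencing complexes, had shares of 33.7% and 45.3% with 4 of 27 higher and none lower. Phc1 and Pcgf3 were present in 4 and 10 and in 4 and 11 cells, and Bmi1, which sustains self-renewal of neural progenitors, in 3 and 8. The interval for Bmi1 covered 0. Under the equal-number scoring the polycomb shares were 36.0% and 39.6%, the difference of Pcgf3 was 9.8 points and that of Bmi1 43.4. The nucleosome-binding genes Hmgn3 and Hmgn5 were present in 4 and 11 and in 2 and 9 cells, and Hmgb2, an HMG-box protein of dividing cells, in 7 and all 13. Hmgb2 signals were 31.8, 1679 and 43565 at E12.5 and 4521, 13506 and 28555 at P0. The de novo DNA methyltransferase gene Dnmt3b went the other way with 5 and 1 cells. Among single factors, Klf13, a Krüppel-like zinc finger protein, was present in 2 and 12 cells, with signals of 80.6, 263 and 2081 at E12.5 and 875, 4206 and 30029 at P0. Zfp36l2, a protein that promotes decay of AU-rich mRNAs, was present in 2 and 11, and the orphan nuclear receptor gene Nr2e1, which maintains neural progenitors, in 3 and 10.

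Genes of the cytoskeleton and of protein turnover lay on the P0 side. Tubulins and their partners had shares of 34.8% and 50.8% with 7 of 30 higher and none lower, and actin and its regulators 52.5% and 65.2% with 9 of 44 higher and none lower. Under the equal-number scoring these shares were 39.4% and 50.0% for tubulins and 55.6% and 62.1% for actin, and 54.4% and 63.5% for the proteasome. Tubb6, a beta-tubulin, was present in 3 and all 13 cells, with signals of 352, 566 and 11442 at E12.5 and 1170.4, 4336 and 12652 at P0. The microtubule-associated genes Map2 and Mapre2 were present in 4 and 12 and in 2 and 9 cells, and the nucleating gamma-tubulin gene Tubg1 in 3 and 10. Map2 is also a neuronal gene, and the retinal ganglion cell list stood at 14.1% at E12.5 and 19.1% at P0, and its part in the Map2 difference was not tested. Tagln2, an actin-binding protein that is also among the paper's late genes around Crym, was present in 2 and 12 cells, and Pfn2, the neural profilin, in 7 and 13. Proteasome genes had shares of 50.9% and 64.8%, with 10 of 47 higher and none lower, including the regulatory subunit genes Psmd4 and Psmd13 (3 and 10 cells each), the activator gene Psme1 (4 and 10) and the core subunit gene Psma5 (5 and 11). The vacuolar proton pump genes Atp6v1a (0 and 8 cells) and Atp6v1b2 (2 and 10) led the lysosome list, which had shares of 24.3% and 35.2%, or 25.9% and 31.7% under the equal-number scoring. Antioxidant genes had 5 of 47 higher and 1 lower, among them the glutathione transferase genes Gstp1 (3 and 11) and Gstm5 (4 and 11) and the thioredoxin inhibitor gene Txnip (0 and 8).

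Further transcription and signalling factors divided between the stages within their families. Of 40 nuclear receptors, 3 were lower and 4 higher by 30 points: the estrogen-related receptor gene Esrra and the orphan receptor genes Nr2c1 and Nr2f6 were each present in 4 E12.5 cells and no P0 cell, while Nr1d2, a repressor of the circadian clock, was present in 2 and 9 cells beside Thra, Rxrb and Nr2e1. With 4 of 11 cells against none, the Newcombe interval of Esrra ran from -64.6 to -5.2 points. Of 42 FGF pathway genes, Etv5, an Ets factor induced by FGF, was present in 6 and 12 cells, and the inhibitor gene Spred2 in 5 and 2. Etv5 signals were 16.1, 4632 and 18964 at E12.5 and 157, 8491 and 14652 at P0. Foxo1 and Foxo3, factors restrained by insulin signalling, were present in 0 and 5 and in 3 and 8 cells, on the opposite side from Insr and from Igfbp2 (5 and 2), a binding protein of insulin-like growth factors. The intervals for Foxo3, Igfbp2 and Spred2 covered 0. The AP-1 genes went apart, with Jun in 3 and 9 cells and Jund in 5 and 1. Lats1, the Hippo kinase, was the single member of its 19-gene list past 30 points, with 2 and 10 cells (58.7 points, interval 18.6 to 78.5). Lats1 signals were 40.3, 201 and 5027 at E12.5 and 119, 2167 and 18475 at P0. The 27 genes of p53 signalling and apoptosis had shares of 22.6% and 30.5%, with Bad, which promotes apoptosis, in 0 and 5 cells and Birc2, which inhibits it, in 1 and 6.

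Genes of protein synthesis and of transport within the cell had somewhat higher shares at P0, but little of this was left when each cell held an equal number of genes. Mitochondrial ribosomal protein genes, which serve the same organelle as the respiratory chain, had 2 of 76 lower and 7 higher, with shares of 34.0% and 39.2%, and of 34% and 34.6% under the equal-number scoring. Among them Mrps14 was present in 4 and 11 cells and Mrpl19 in 6 and 2. Translation factors had shares of 62.1% and 69.4% (64.2% and 66.7% under the equal-number scoring), and Aimp1, a scaffold of the tRNA synthetase complex, was present in 3 and 11 cells. In the secretory pathway, with 3 of 99 genes lower and 8 higher, the shares were 28.2% and 34.4% (29.9% and 31.9% under the equal-number scoring), and the coat genes differed in direction. Copb2, of the COPI coat, was present in 4 and 12 cells, and Sar1b and Sec13, of the COPII coat, in 3 and 11 and in 3 and 10, whereas the COPII cargo adaptor gene Sec24b was present in 7 and 4, with an interval of -60.7 to 6.1 points that covered 0. Sar1b signals were 7.89, 224 and 21270.5 at E12.5 and 69.7, 8046 and 18551 at P0, with most E12.5 cells far below the threshold. Nsf, the ATPase that recycles SNARE complexes, was present in 0 and 6 cells and its partner gene Napa in 4 and 11. Microtubule motors had 10 of 59 genes higher and none lower, with shares of 26.2% and 33.1% (27.3% and 30.1% under the equal-number scoring), including Kif2a (3 and 10 cells), which disassembles microtubules, and Kif21a (2 and 8), a kinesin of neurons. Nuclear pore and transport genes had shares of 46.1% and 52.1%, but 49.5% and 47.2% under the equal-number scoring. The importin genes Kpna3 and Kpna4 were present in 3 and 10 and in 3 and 8 cells, while Ipo13, another import receptor, was present in 5 and 1, on the side of the exportin gene Xpo7. The interval for Kpna4 covered 0. Splicing factors had 10 of 78 higher and 3 lower with shares of 60.8% and 68.0% (64.2% and 66.1% under the equal-number scoring), and those named by the rule included Snrpa1 (5 and 12) and Prpf19 (7 and 4). The interval for Prpf19 covered 0.

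Among the genes ranked 16 to 45 on the P0 side were several outside these groups. Frmd4a, a scaffold of cell polarity, was present in 3 and all 13 cells, with signals of 4.19, 147 and 13419 at E12.5 and 2099, 8531 and 43983 at P0. Of the E12.5 cells, 3 lay inside the P0 range and 8 below every P0 cell. Cnp, an enzyme known from myelin, and Spon1, a secreted guidance protein, were each present in no E12.5 cell and 9 P0 cells, and Srgap2, a regulator of membrane protrusions, in 1 and 10. Sat1, which acetylates polyamines, was present in 1 and 10 cells. Matrix genes lay on both sides. In contrast to the collagen IV genes, which were lower at P0, Col2a1 (3 and 10 cells), Col23a1 (2 and 9) and Lamc1 (1 and 6) were higher, and so was Col9a3 (0 and 12). The semaphorin genes Sema5a and Sema5b were present in 0 and 7 and in 1 and 7 cells.

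Many gene families had shares that differed between the stages by no more than those of all genes (15.3% and 18.1%). Solute carriers (334 genes) had shares of 9.8% and 11.1%, voltage-gated channels (124 genes) 3.4% and 4.0%, neurotransmitter receptors (78 genes) 1.4% and 1.5%, and Fox factors (37 genes) 11.1% and 10.2%. Hox cluster genes, which are silent in the eye, were present in none of the 24 cells, and keratins and muscle genes in at most 1.3% of combinations. Photoreceptor genes had shares of 9.1% and 11.2% and bipolar cell genes 3.0% and 5.1%. Amacrine and horizontal cell genes differed more, with 3.3% and 10.8%, 13 members in more P0 cells and 1 in fewer, and Tfap2b, a factor of postmitotic amacrine cells, was present in 0 and 4 cells. The interval for Tfap2b covered 0.

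For genes present in nearly every cell the share can differ little, and the signal was compared instead. In all, 455 genes were present in 75% or more of the cells of both stages, with a median log2 ratio of P0 over E12.5 median signals of -0.06. By 4-fold or more, 15 were lower at P0 (3.3%) and 1 was higher (0.22%), and by 2-fold or more 71 were lower (15.6%) and 27 higher (5.93%). Ribosomal protein genes were mostly lower. Of the 33 in this set, 30 were lower, with a median log2 ratio of -1.29, and 8 of the 15 genes past 4-fold belonged to them. Rpl37a, of the large subunit, had signals of 11547, 38455 and 51710 at E12.5 and 1827, 3604 and 20176 at P0, a 10.7-fold lower median. Rpl35 had 32314, 47687 and 68332 at E12.5 and 4460.1, 9268 and 24221 at P0, so that every E12.5 cell lay above every P0 cell. Rps15, of the small subunit, was 6.11-fold lower. Without the ribosomal genes the median log2 ratio of the other 422 genes was -0.02, and 7 genes remained past 4-fold lower. These were the respiratory chain genes Uqcrh and Cox6c, the ATP synthase inhibitor gene Atpif1, the spliceosomal gene Snrpg, the nucleoside diphosphate kinase gene Nme2, the ribosome biogenesis gene Nsa2 and Gas5, a host transcript of small nucleolar RNAs, with folds between 4.17 and 5.35. Some ribosomal genes fell short of the threshold in part of the P0 cells, namely Rps28 (10 and 4 cells), Rpl38 (11 and 7) and Rps29 (11 and 8). P0 cells also differed from each other. Fau, another ribosomal gene past 4-fold, had signals of 10543, 12921, 10605 and 11689 in P0 cells E5, E6, E2 and F3. In the other P0 cells Fau reached at most 6462. Gas5 did not divide the P0 cells in this way, with 1968 in E2 and 23094 in G2.

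The 18S controls moved with the ribosomal signals, whereas the Gapdh and beta-actin controls did not. The array's 18S ribosomal RNA control probe sets, which read an RNA without a poly(A) tail, had medians of 1969, 4916 and 1830 at E12.5 and 253, 615 and 459.9 at P0. The Gapdh 3′ control probe set had medians of 56939 and 57446, and the beta-actin 3′ control 8167 and 15835. The array's hybridisation controls were lower at P0, with medians of 21709 and 14969 for BioB 3′ and of 52819 and 37242 for BioC 5′. The part of these measures in the ribosomal difference and in the other differences of median signal was not tested. On the higher side, Phospho2, a phosphatase gene, had signals of 70.3, 4629 and 33163 at E12.5 and 9956, 34819 and 98714 at P0, 7.52-fold higher. It was followed by Adh5 (3.67-fold), which detoxifies formaldehyde, and Arf1 (3.14-fold), a small GTPase of the Golgi.

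**Figure D4:**
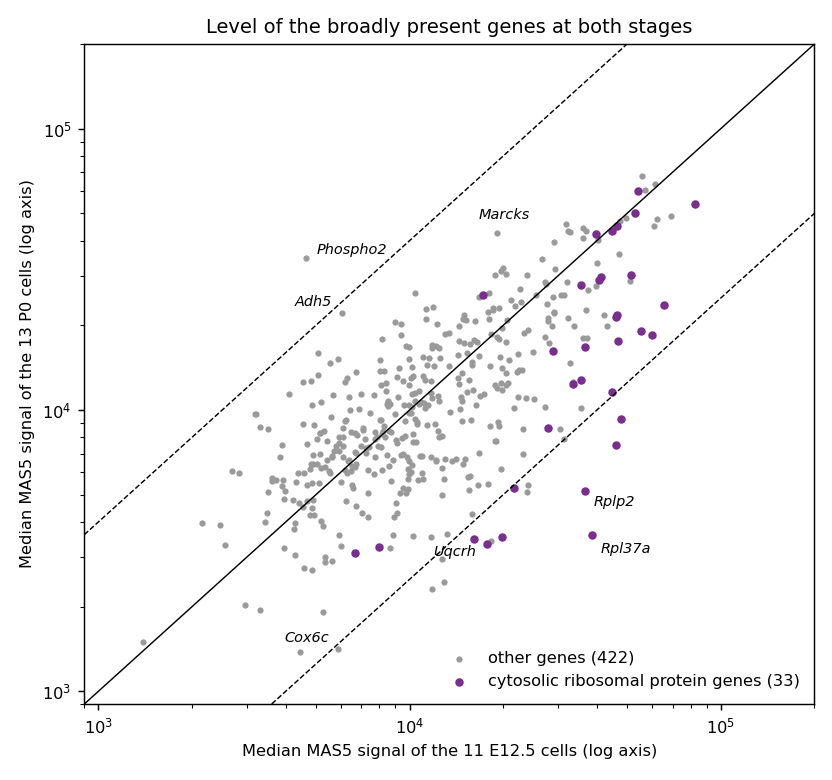
Median signal at E12.5 (11 cells) against median signal at P0 (13 cells) for the 455 genes present in 75% or more of the cells of both stages, on log axes, with ribosomal protein genes in their own colour, a solid line of equality and dashed lines at 4-fold. Of 33 ribosomal genes, 30 lie below the line of equality, while the other genes scatter around it with a median log2 ratio of -0.02.

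Cells of intermediate stages were set beside these values. The genes were chosen for the extremes of the E12.5 and P0 cells, so that other cells would fall between in any case, and the values are a description. Of the 27 genes lower at P0, a cell held a median of 21 at E12.5 (range 16 to 26), 14 at E16.5 (7 to 22, 11 cells) and 3 at P0 (0 to 11). P0 cells E5, E6, E2 and F3 held 10, 10, 11 and 10 of them, and no other P0 cell held more than 5. Under the equal-number scoring these cells held 8, 9, 10 and 9, while C5 held 9 and C8 6. E5, E6 and F3 also had the most genes present of any P0 cell (4100, 4182 and 4498). For the 129 genes higher at P0 the medians were 15 (9 to 48), 51 (17 to 65) and 100 (61 to 113). At E16.5 the lower genes were present in 50.5% of combinations and the higher genes in 36.2%, and 87 of the 129 higher genes lay nearer their E12.5 than their P0 share. The P0 cells with the fewest of the 129 genes were A8 (61) and the transitional cell C5 (63). A8 and C5 also had the fewest genes present of any P0 cell (2001 and 2103). Under the equal-number scoring they held 72 and 69 of the 129. The E12.5 cell with the most of the 129 genes was A4 (48), which also had the most genes present of any E12.5 cell (4828). Named genes differed in the number of E16.5 cells that held them. Of 11 E16.5 cells, 6 carried Nrarp, 8 Tubb6 and 9 Rbpj, whereas Nfia and Hey2 were each present in 1 and Idi1 in 2. Thra, Klf13 and Ptch1 were each present in 4. Among genes lower at P0, Ccnd3 was present in 3 and Hmg20b in 4 E16.5 cells, while Six6 was present in 6. The E16.5 median signals of Rpl37a and Cox6c were 27645.5 and 9129.5, against 38455 and 5889 at E12.5 and 3604 and 1411 at P0.

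**Figure D5:**
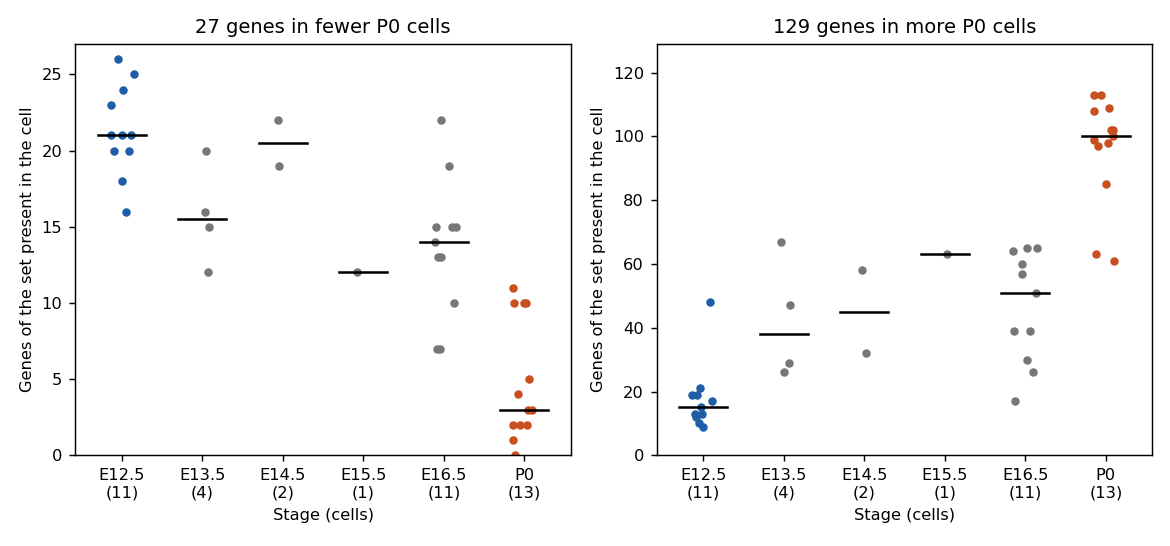
Number of the 27 genes lower at P0 and of the 129 genes higher at P0 that were present in each cell, by stage from E12.5 to P0, with 1 point per cell and a bar at the median. The medians of the second set run from 15 at E12.5 through 51 at E16.5 to 100 at P0, and the E12.5 and P0 values are a description because those cells chose the genes.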

How the data were processed

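The series holds single RPCs on Affymetrix 430 2.0 arrays. The authors computed MAS5 signals, scaled each array to a target intensity of 500 and deposited 1 signal intensity per probe set on a linear scale, and the deposited intensities were used as given. Of 45101 probe sets, 34958 carried 1 gene symbol in the platform annotation, 932 carried several and 9211 carried none here. The highest signal of a gene's single-symbol probe sets was its value, and 1000 or more counted as present. Amplification by 35 cycles and the highest-probe-set rule both affect low signals, and the depth of an array is limited by signal over background.

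Groups came from the source names. Shares have exact Clopper-Pearson and differences Newcombe 95% intervals. Genes present in 75% or more of the cells of both stages were compared by median signal. Named were the genes at ranks 16 to 45 of the difference in each direction, up to 4 members of each of 89 gene lists per direction at 30 points or more, the 20 broadly present genes with the largest ratio in each direction, and the genes used to class the cells. Genes of the 15 largest differences appear only beside a list. The members and lists were chosen with earlier results of these data known. Alternatives were other thresholds (500, 2000 and 5000), the 3000 highest genes of each cell, quantile normalization, other rules for probe sets and leaving out cells. The counting was tested on simulated data. Python 3.11.15, numpy 2.4.6, pandas 2.3.3, scipy 1.17.1 and matplotlib 3.10.9 were used. Promoters came from RefSeq's GRCm38.p6 table.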

Additional observations from a re-analysis of the deposited data

How the results depend on the processing

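No test was made, so that these alternatives show only how the counts move. Against 27 genes lower and 129 higher at P0 by 50 points, and 277 and 860 by 30 points, calling the 3000 highest genes of each cell present gave 53, 79, 475 and 541, and quantile normalization gave 56, 83, 492 and 571. Of the 27 and 129 genes, 18 and 63 were shared with the equal-number scoring. A threshold of 5000 left 44 and 260 higher genes. The lower set kept its size but not its members across thresholds, since 16, 12 and 5 of the 27 genes were shared at 500, 2000 and 5000, and 86, 70 and 21 of the 129 higher genes. For median signals, against 15 genes lower and 1 higher by 4-fold, quantile normalization gave 3 higher, the mean of a gene's probe sets gave 0 higher (without Phospho2), and a 60% limit on broad presence gave 29 lower and 8 higher. Leaving out ribosomal genes, an alternative chosen after seeing the data, left 7 lower. Leaving out each cell in turn gave ranges of 24 to 45, 111 to 192, 226 to 377 and 800 to 1168 for the shares and of 12 to 18 and 1 to 2 for the signals, the 2 coming from leaving out A4, E6, E3, B1 or F8 of E12.5. E12.5 cell E5, which lacked Ccnd1 and Sox2, gave 45 lower genes when left out, as did E3, and B4 gave 41. The 5 cells with 9 or more retinal ganglion cell genes, also chosen after seeing the data, gave 218 higher genes when left out. The cause of these shifts was not tested. Of 137 named genes past 30 points, 135 kept their sign in all settings, and Atp5k and Rxrb had a difference of 0 points at the 5000 threshold. Leaving out 1 cell cannot reverse a difference of 30 points, so that a kept sign there adds no support. In other settings some differences kept their sign but nearly vanished, down to 2.1 points for Foxo3, -2.8 for Crabp2 and 4.9 for Nfic and Kif21a. No paired analysis was possible because the labels give the cells no replicate numbers that link the stages. Low signals limit the shares: a transcript lost in amplification is scored as not present.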

Other observations

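Some genes of neurons and of blood were present in single RPCs. Among 29 retinal ganglion cell genes the shares were 14.1% at E12.5 and 19.1% at P0, and the genes were unevenly spread: P0 cells B6 and C1 each held 17, E12.5 cell A4 held 12 and P0 cell B5 held 10, while the median cell of either stage held 4. Gap43, a growth cone gene of postmitotic neurons, was present in 0 E12.5 and 3 P0 cells, and Crx, a photoreceptor factor, in 1 and 3. The 10 blood genes of the list, 5 of them globins, were present in 10.0% of combinations at E12.5 and 3.1% at P0, and E12.5 cell G2 held 7 of the 10. The globin symbol Hba-a2, which is not in the list and is named after its values were seen, was present in all 24 cells, with medians of 36811 at E12.5 and 43286 at P0, while Hba-a1 was present in none. No lens crystallin was present at E12.5, and pigment epithelium genes were present in 0.0% and 6.7% of combinations, where Rlbp1, which Müller glia also express, was present in 11 P0 cells.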
